A study of Mus musculus with 6 samples.

Results

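The transcripts described here are those of the 3 TGF-beta ligands (Tgfb1, Tgfb2 and Tgfb3), their 3 receptors (Tgfbr1, Tgfbr2 and Tgfbr3), 3 SMAD proteins (Smad2, Smad3 and Smad7) and the matrix protein Ltbp2, measured in mouse hearts. They were taken by gene symbol from the deposited expression table and make up 10 of its 26835 genes, and each symbol stood on a single row. The 6 libraries form 3 groups of 2, all from wild type mice of the C57BL/6 strain with a weight of about 20 g and an age of 7 to 8 weeks. CFZ_EA mice were injected intraperitoneally with 8 mg/kg of carfilzomib and received electroacupuncture, a current passed through needles, at the PC6 acupoint. CFZ mice were injected with the same dose of carfilzomib, an irreversible proteasome inhibitor given in multiple myeloma whose known side effects include heart damage. Control mice were injected with 10% DMSO. Days 0, 2, 4 and 6 are listed for each library, and the labels do not state the day of dissection, the part of the heart taken or whether the replicates of a group are separate mice.

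TGF-beta is secreted as a latent dimer bound to its own propeptide, is stored in the extracellular matrix and acts after release. Active ligand is bound by TGFBR2, which phosphorylates TGFBR1, and TGFBR1 in turn phosphorylates SMAD2 and SMAD3, which enter the nucleus with SMAD4 and regulate transcription. SMAD7 is induced by the pathway and blocks its receptor. In the heart the pathway is best known for turning fibroblasts into matrix-producing myofibroblasts.

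None of the 10 genes passed the test across all genes, an adjusted p under 0.05 by edgeR, in any comparison of groups. The lowest levels of Ltbp2, Tgfb2 and Tgfb3 were those of both CFZ libraries: the CFZ means were 0.121, 0.552 and 0.404 times the control means, and the CFZ_EA means were 3.85, 1.62 and 1.26 times the CFZ means. In FPKM, Tgfb1, Tgfbr1 and Tgfbr2 were lower in both CFZ and both CFZ_EA libraries than in either control library. On counts scaled to library size as for the fit, Tgfb1 overlapped between CFZ and control. Tgfbr3, Smad2, Smad3 and Smad7 overlapped between all groups in FPKM. On scaled counts Smad2 was slightly higher in both CFZ_EA libraries than in both control libraries. For Ltbp2, Tgfb3, Tgfb1 and Tgfbr2 much of the distance from control rested on 1 library, control replicate 2. For CFZ against control, leaving it out moved the log2 fold change of Tgfb2 only from -0.76 to -0.69. That of Tgfbr1 went from -0.47 to -0.52. In FPKM all 10 members were higher in that library than in control replicate 1, while on scaled counts Tgfbr1, Tgfbr3 and Smad7 were lower.

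Estimated counts totalled 50013990 to 75742448 per library. Mitochondrial genes held 14.8% of counts in control replicate 2 and 17.9% to 21.3% in the other libraries. On the first principal component of all tested genes, with 36.4% of the variance, control replicate 2 lay at 48.56 and the other libraries between -23.17 and 0.64. Cardiomyocyte markers were present in every library (summed level 20106 to 25699 FPKM), and none of the markers of 9 cell types was at 0 in any library, whereas the summed level of atrial markers ran from 209 FPKM in CFZ replicate 2 to 5664 FPKM in CFZ_EA replicate 2. These libraries, control replicate 2 and CFZ_EA replicate 2, were each left out in turn.

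Tgfb2 (chromosome 1, 186622792 to 186705989, minus strand, GRCm38) encodes the ligand that needs the co-receptor TGFBR3 for efficient binding. It measured 0.729 and 0.748 FPKM in CFZ_EA libraries, 0.449 and 0.465 FPKM in CFZ libraries, and 0.738 and 0.917 FPKM in control libraries, where FPKM is the number of sequenced fragments scaled to transcript length and library size. Both CFZ libraries lay below the other 4, and the replicates of each group were close to each other. Its log2 fold change was -0.76 ± 0.22 (SE) for CFZ against control and 0.69 ± 0.22 for CFZ_EA against CFZ. Neither passed over all genes: edgeR's quasi-likelihood test gave adjusted p = 0.614 and 1 (unadjusted p = 0.0137 and 0.0209). With any library left out, the values stayed between -0.84 and -0.68 for CFZ against control and between 0.60 and 0.77 for CFZ_EA against CFZ. CFZ_EA differed from control by -0.076 ± 0.22, and these groups overlapped.

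Ltbp2 (chromosome 12, 84783212 to 84876532, minus strand) belongs to the family of latent TGF-beta binding proteins but, unlike its relatives, does not bind latent TGF-beta, and is a component of elastic microfibrils. It measured 0.596 and 0.694 FPKM in CFZ_EA libraries, 0.167 and 0.168 FPKM in CFZ libraries, and 0.442 and 2.32 FPKM in control libraries. Both CFZ libraries were again the lowest, with 98 and 96 estimated counts, while the control replicates differed more from each other than CFZ_EA differed from CFZ. The log2 fold change of CFZ against control was -2.89 ± 0.70 (adjusted p = 0.614 by edgeR, unadjusted p = 0.00587). It was -1.38 when control replicate 2 was left out. With control replicate 2 as the only control it was -3.61 and passed (adjusted p = 0.0168). DESeq2 also called it (adjusted p = 0.00148), and over all alternatives the adjusted p ran from 0.00148 to 0.847. CFZ_EA against CFZ, which uses no control library, gave 1.93 ± 0.68 (adjusted p = 1, unadjusted p = 0.0285) and 1.81 to 2.05 with a library left out. CFZ_EA against control gave -0.95 ± 0.65, and the sign turned to 0.55 without control replicate 2. In the annotation 764 of the 8184 exon bases of Ltbp2 are shared with the antisense gene D030025P21Rik, which held 0 to 19 counts per library, and whether counting used strand is not given in the sources used here.

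Tgfb3 (chromosome 12, 86056745 to 86079041, minus strand) encodes a ligand made mainly by mesenchymal cells. It measured 5.45 and 5.91 FPKM in CFZ_EA libraries, 4.78 and 4.23 FPKM in CFZ libraries, and 5.62 and 16.7 FPKM in control libraries. Both CFZ libraries were again lowest, control replicate 1 lay between the CFZ_EA libraries, and control replicate 2 stood far above the rest. The log2 fold change of CFZ against control was -1.22 ± 0.43 (adjusted p = 0.608 by edgeR, unadjusted p = 0.0300), and -0.33 without control replicate 2. With control replicate 2 as the only control it was -1.77 and passed (adjusted p = 0.0158, where all alternatives ran from 0.0158 to 1). CFZ_EA against CFZ gave 0.35 ± 0.43, and 0.27 to 0.43 with a library left out. CFZ_EA against control gave -0.88 ± 0.43, and 0.013 without control replicate 2. With control replicate 2 as the only control it was -1.41 and passed (adjusted p = 0.0275, where all alternatives ran from 0.0275 to 1). Tgfb3 shares exon bases with the opposite-strand models Gm37804 and Gm48008, which held 0 to 4 counts per library.

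Tgfb1 (chromosome 7, 25687002 to 25705077, plus strand) encodes the ligand made by immune cells, platelets and many other cells, and had the highest mean level of the 10 genes. It measured 6.09 and 7.25 FPKM in CFZ_EA libraries, 6.00 and 7.56 FPKM in CFZ libraries, and 7.75 and 10.5 FPKM in control libraries. Both treated groups lay below control, and they overlapped with each other. The log2 fold change was -0.36 ± 0.20 for CFZ against control (adjusted p = 0.695 by edgeR) and -0.38 ± 0.20 for CFZ_EA against control (adjusted p = 0.848). Without control replicate 2 these were -0.20 and -0.22, and without CFZ replicate 1 the first was -0.16. CFZ_EA against CFZ gave -0.02 ± 0.20, and its 4 libraries overlapped.

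**Figure D1:**
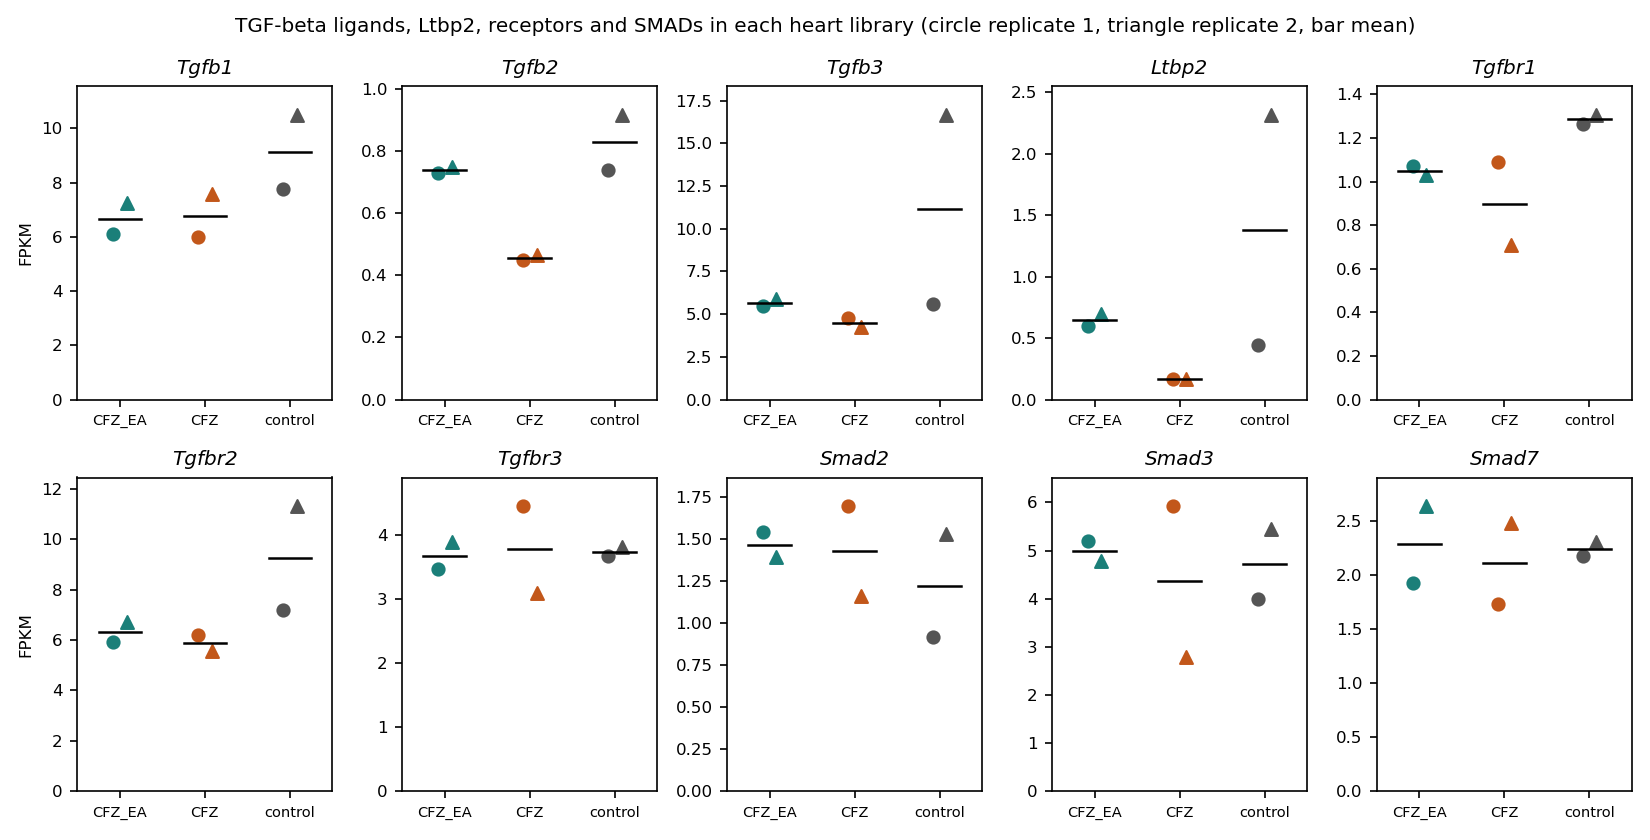
Level of each of the 10 genes in FPKM (vertical axes, each from 0 on its own scale) in CFZ_EA, CFZ and control hearts. Circles are replicate 1, triangles replicate 2 and bars group means (n = 2). Tgfb2 and Ltbp2 were lowest in both CFZ libraries, and control replicate 2 was the highest library for Tgfb1, Tgfb2, Tgfb3, Ltbp2, Tgfbr1 and Tgfbr2.

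The promoters of Tgfb2 and Ltbp2, the genes with the largest distance between CFZ_EA and CFZ, are shown with that of Tgfb1, which overlapped between these groups. Each is the sequence before the annotated gene start, taken from RefSeq on GRCm38.p6 and read 5′ to 3′ along the gene's own strand. The windows are chr1:186705990-186706239 for Tgfb2, chr12:84876533-84876741 for Ltbp2 and chr7:25686752-25687001 for Tgfb1. Capitals mark CAGAC, the core of the SMAD binding element, on either strand (GTCTG on the other).
Tgfb2: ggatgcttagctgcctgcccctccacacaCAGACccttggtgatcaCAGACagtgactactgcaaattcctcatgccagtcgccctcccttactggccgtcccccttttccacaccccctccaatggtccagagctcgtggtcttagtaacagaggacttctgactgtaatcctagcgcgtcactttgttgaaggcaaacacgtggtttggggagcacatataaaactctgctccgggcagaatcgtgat
Ltbp2: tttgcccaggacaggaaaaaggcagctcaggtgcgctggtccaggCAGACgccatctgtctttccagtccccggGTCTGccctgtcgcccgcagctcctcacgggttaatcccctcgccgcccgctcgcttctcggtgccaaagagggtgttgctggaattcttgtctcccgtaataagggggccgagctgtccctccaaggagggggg
Tgfb1: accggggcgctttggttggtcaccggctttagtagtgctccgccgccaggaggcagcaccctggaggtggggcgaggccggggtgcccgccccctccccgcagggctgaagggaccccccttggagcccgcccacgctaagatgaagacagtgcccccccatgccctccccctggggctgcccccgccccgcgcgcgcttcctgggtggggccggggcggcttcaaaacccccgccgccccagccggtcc
The motif stood at 2 places in the Tgfb2 promoter, 2 in the Ltbp2 promoter and 0 in the Tgfb1 promoter. It is held by 42.2% of all 32851 promoters of 250 bases listed there, so a match of these 5 letters is common. Of the 10 genes 6 had a promoter in the table, and Tgfbr2 and 1 of the 2 Tgfbr1 promoters held 1 match each, against 0 in the other Tgfbr1 promoter and in Smad3. The matches are letters only and are not measured binding sites.

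The receptors were present at unequal levels. Tgfbr2 (chromosome 9, 116084293 to 116175360, minus strand), the ligand-binding kinase, measured 5.92 and 6.71 FPKM in CFZ_EA libraries, 6.20 and 5.58 FPKM in CFZ libraries, and 7.19 and 11.3 FPKM in control libraries. Both treated groups were below both control libraries and overlapped with each other. The log2 fold change was -0.59 ± 0.19 for CFZ against control (adjusted p = 0.608 by edgeR, unadjusted p = 0.0223) and -0.47 ± 0.19 for CFZ_EA against control (adjusted p = 0.848, unadjusted p = 0.0487). Without control replicate 2 these were -0.30 and -0.19, and in CFZ_EA against CFZ the value was 0.11 ± 0.19, and 0.004 without CFZ_EA replicate 2. In mice the loss of this receptor from heart fibroblasts is known to blunt fibrosis under pressure overload.

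Tgfbr1 (chromosome 4, 47353222 to 47414931, plus strand), the kinase that phosphorylates SMAD2 and SMAD3, measured 1.07 and 1.03 FPKM in CFZ_EA libraries, 1.09 and 0.708 FPKM in CFZ libraries, and 1.27 and 1.31 FPKM in control libraries. The control replicates were close to each other here, and the 4 treated libraries lay below them. The log2 fold change was -0.47 ± 0.22 for CFZ against control (adjusted p = 0.670 by edgeR), -0.23 ± 0.22 for CFZ_EA against control and 0.24 ± 0.22 for CFZ_EA against CFZ. CFZ replicate 2 was the lowest library: without it the change of CFZ against control was -0.24 and that of CFZ_EA against CFZ was 0.012.

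Tgfbr3 (chromosome 5, 107106570 to 107289629, minus strand), or betaglycan, presents ligand to TGFBR2. It measured 3.47 and 3.89 FPKM in CFZ_EA libraries, 4.46 and 3.10 FPKM in CFZ libraries, and 3.67 and 3.81 FPKM in control libraries. The CFZ libraries held both the highest and the lowest value. The log2 fold changes were 0.062 ± 0.18 for CFZ against control, -0.02 ± 0.18 for CFZ_EA against CFZ and 0.042 ± 0.18 for CFZ_EA against control, and every one of them changed sign with 1 library left out or with another scaling. The ratio of Tgfbr2 to Tgfbr1 in FPKM, which sets the kinases against each other within a library, was 5.53 and 6.52 in CFZ_EA, 5.70 and 7.88 in CFZ, and 5.68 and 8.66 in control, with all groups overlapping.

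Smad2 (chromosome 18, 76241580 to 76310963, plus strand) and Smad3 (chromosome 9, 63646767 to 63757994, minus strand) encode the SMADs that carry the signal to the nucleus. Smad2 measured 1.54 and 1.39 FPKM in CFZ_EA libraries, 1.70 and 1.16 FPKM in CFZ libraries, and 0.914 and 1.53 FPKM in control libraries. Its lowest library was control replicate 1, and the log2 fold changes were 0.29 ± 0.26 for CFZ against control, 0.054 ± 0.26 for CFZ_EA against CFZ and 0.34 ± 0.26 for CFZ_EA against control. Without control replicate 1 the comparisons with control gave 0.021 and 0.080, and without control replicate 2 they gave 0.62 and 0.68, while CFZ_EA against CFZ turned to -0.15 without CFZ replicate 2.

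Smad3 measured 5.20 and 4.79 FPKM in CFZ_EA libraries, 5.93 and 2.80 FPKM in CFZ libraries, and 3.99 and 5.45 FPKM in control libraries. The CFZ replicates bracketed all other libraries. The log2 fold changes were -0.068 ± 0.32 for CFZ against control, 0.22 ± 0.32 for CFZ_EA against CFZ and 0.15 ± 0.32 for CFZ_EA against control. Leaving out 1 CFZ library moved CFZ against control to -0.64 or 0.34 and CFZ_EA against CFZ to 0.79 or -0.18, so its direction depended on which CFZ library was used. Per length, Smad3 was above Smad2 in every library, by 3.37 and 3.44 times in CFZ_EA, 3.49 and 2.41 times in CFZ, and 4.37 and 3.57 times in control.

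Smad7 (chromosome 18, 75367529 to 75395935, plus strand), the inhibitory SMAD and itself a direct target of the pathway, measured 1.93 and 2.63 FPKM in CFZ_EA libraries, 1.73 and 2.48 FPKM in CFZ libraries, and 2.17 and 2.30 FPKM in control libraries. Both control libraries lay inside the range of each treated group. The log2 fold changes were -0.023 ± 0.27 for CFZ against control, 0.12 ± 0.27 for CFZ_EA against CFZ and 0.096 ± 0.27 for CFZ_EA against control. Each of the 3 changed sign with 1 library left out.

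Ordered by mean level, the 10 genes stood in the same order in CFZ_EA and CFZ: Tgfb1, Tgfbr2, Tgfb3, Smad3, Tgfbr3, Smad7, Smad2, Tgfbr1, Tgfb2 and Ltbp2. In control the order was Tgfb3, Tgfbr2, Tgfb1, Smad3, Tgfbr3, Smad7, Ltbp2, Tgfbr1, Smad2 and Tgfb2. The replicates of neighbouring genes overlapped for 1 of 9 pairs in CFZ_EA (Tgfb1 and Tgfbr2), for 3 of 9 in CFZ and for 6 of 9 in control. In control Tgfb3 averaged 11.2 ± 7.83 FPKM, Tgfbr2 9.26 ± 2.93 FPKM and Tgfb1 9.13 ± 1.95 FPKM (SD, n = 2 each), so these 3 levels did not differ beyond their spread. In CFZ_EA Tgfb1 averaged 6.67 ± 0.819 FPKM and Tgfbr2 6.32 ± 0.558 FPKM, and in CFZ they averaged 6.78 ± 1.11 FPKM and 5.89 ± 0.442 FPKM.

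The makeup of the ligand transcripts followed from these levels. Tgfb2 made up 5.94% and 5.38% of the summed ligand FPKM in CFZ_EA, 4.00% and 3.79% in CFZ, and 5.23% and 3.26% in control. CFZ_EA libraries were above CFZ libraries in this share, and the control libraries spanned the CFZ values. Tgfb3 made up 44.4% and 42.5% in CFZ_EA, 42.6% and 34.5% in CFZ, and 39.8% and 59.4% in control, and Tgfb1 made up 49.6% and 52.1% in CFZ_EA, 53.4% and 61.7% in CFZ, and 54.9% and 37.4% in control. Control replicate 2 was the one library with more Tgfb3 than Tgfb1. An exact test of 2 against 2 libraries cannot give a p below 0.333, so none was run on these shares.

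**Figure D2:**
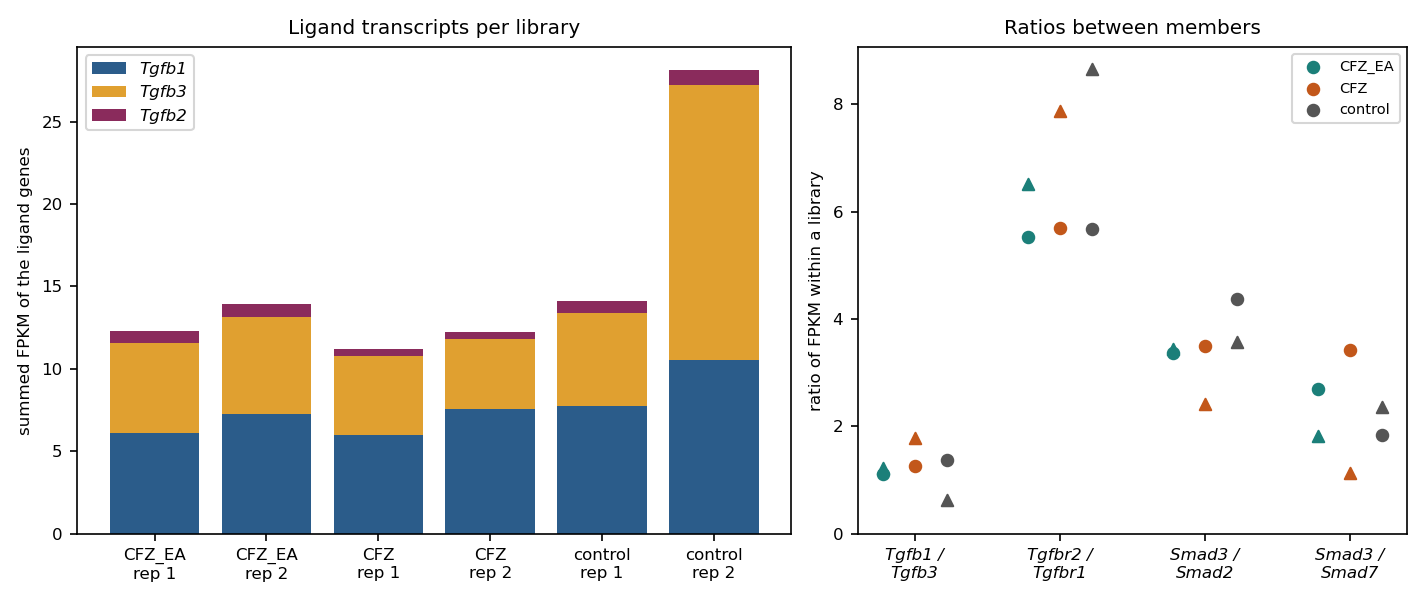
Left, FPKM of Tgfb1, Tgfb3 and Tgfb2 stacked in each library (vertical axis, summed FPKM). Right, ratios of FPKM between members within each library, with circles for replicate 1 and triangles for replicate 2. The ligand sum was 28.1 FPKM in control replicate 2 and 11.2 to 14.1 FPKM in the other 5 libraries.

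CFZ against control sets carfilzomib against vehicle. Of the 8 genes with a mean level of at least 1 FPKM, 0 were called at an adjusted p under 0.05, where 0.029% of the 10329 tested genes were called by edgeR, and DESeq2 and limma also called 0 of the 8. At an unadjusted p under 0.05, 2 of the 8 were lower (Tgfb3 and Tgfbr2), against 5.9% of all tested genes. In 4 of the 8 (Tgfb1, Tgfb3, Tgfbr1 and Tgfbr2) both CFZ libraries were below both control libraries in FPKM, against 20.8% of all tested genes, and 0 of the 8 were higher without overlap, against 12.5%. On scaled counts Tgfb1 overlapped between these groups. Tgfbr1 passed the filter close to its limit, with a mean of 1.08 FPKM over all libraries. Its mean was 0.898 FPKM in CFZ and 1.29 FPKM in control, so the filter favoured its direction. The median log2 fold change of the 8 was -0.21 and that of all tested genes was -0.0034. When Tgfb2 and Ltbp2 were brought in by fitting the 16929 genes with a mean of at least 0.1 FPKM, 6 of 10 were lower without overlap, against 24.8%, and 4 of 10 had an unadjusted p under 0.05, against 6.07% in that direction. Ligands, kinase receptors and Ltbp2 made up these 6, and Tgfbr3 and the SMADs did not enter. The 10 genes were chosen with earlier results of these data known. The shares of all genes therefore give scale only and are no test of the set. This holds for the comparisons and lists below as well.

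CFZ_EA against CFZ sets carfilzomib with electroacupuncture against carfilzomib alone. Of the 8 genes 0 were called by edgeR, DESeq2 or limma, where edgeR called 0.0194% of all tested genes, and 0 had an unadjusted p under 0.05, against 3.09%. Tgfb3 was the 1 gene of the 8 that was higher in both CFZ_EA libraries than in both CFZ libraries, against 15.1% of all tested genes, and 0 were lower without overlap, against 17.7%. With Tgfb2 and Ltbp2 brought in, 3 of 10 were higher without overlap, against 18.5%, and 2 of 10 (Tgfb2 and Ltbp2) had an unadjusted p under 0.05, against 2.51% in that direction. The median log2 fold change of the 8 was 0.12, and that of all tested genes was -0.0084. This comparison shares both CFZ libraries with the one before, so a low value in CFZ enters both with opposite signs.

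CFZ_EA against control sets both treatments against vehicle. Here edgeR called 0 of the 8 genes and 0.0% of all tested genes, DESeq2 and limma called 0 of the 8, and 1 gene (Tgfbr2) was lower at an unadjusted p under 0.05, against 3.66% of all tested genes. Tgfb1, Tgfbr1 and Tgfbr2 were lower in both CFZ_EA libraries than in both control libraries, 3 of 8 against 22.1% of all tested genes, and 0 were higher, against 10.5%. Tgfb2, Tgfb3 and Ltbp2 overlapped between these groups. With Tgfb2 and Ltbp2 brought in, 3 of 10 were lower without overlap, against 22.3%, and 0 of 10 had an unadjusted p under 0.05, against 3.51% in that direction. In that fit Tgfbr2 had an unadjusted p of 0.0521 by edgeR's quasi-likelihood test. The median log2 fold change of the 8 was -0.093.

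**Figure D3:**
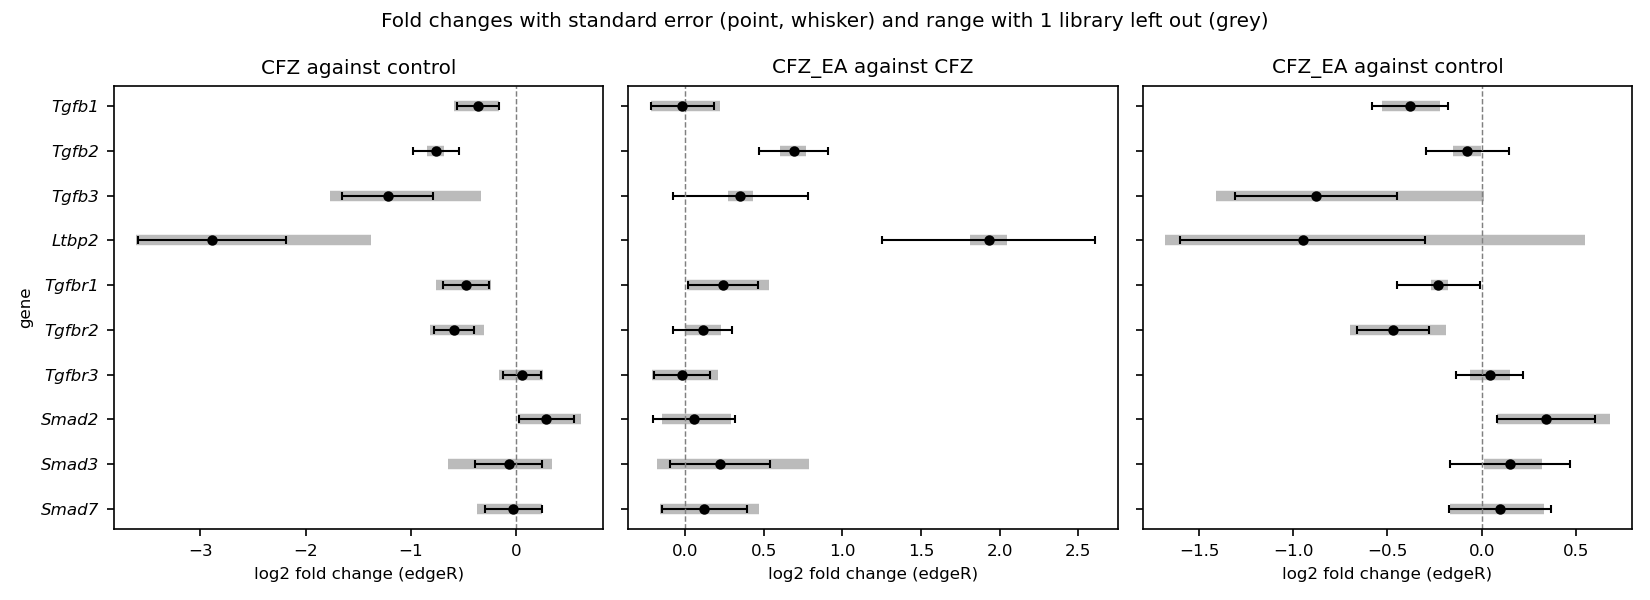
Log2 fold change of each gene in 3 comparisons (horizontal axes), with points for the estimate, whiskers for its standard error and grey bars for the range with each library left out in turn. For CFZ against control the Ltbp2 bar ran from -3.61 to -1.38 and the Tgfb2 bar from -0.84 to -0.68. For CFZ_EA against control the Tgfb3 and Ltbp2 bars crossed 0.

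The replicates of a group set the size of difference that could be seen. In FPKM all 10 genes were higher in control replicate 2 than in control replicate 1, as were 67.0% of tested genes. On scaled counts Tgfbr1, Tgfbr3 and Smad7 were lower there. By FPKM 4 of 10 differed by over 1.5-fold between the control replicates (Tgfb3, Ltbp2, Tgfbr2 and Smad2), against 19.0% of tested genes. In CFZ 2 of 10 did (Tgfbr1 and Smad3), against 10.9%, and in CFZ_EA 0 of 10 did, against 8.74%.

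Marker levels differed between groups for some cell types and overlapped for others. The summed level of 8 fibroblast markers was 775 and 771 FPKM in CFZ_EA, 587 and 518 FPKM in CFZ, and 722 and 974 FPKM in control. This is the order seen for Tgfb2, Tgfb3 and Ltbp2, with both CFZ libraries lowest. All 8 markers were lower in CFZ than in control without overlap, and 7 were higher in CFZ_EA than in CFZ without overlap. Atrial markers were also lowest in CFZ: they summed to 972 and 5664 FPKM in CFZ_EA, 341 and 209 FPKM in CFZ, and 2833 and 1617 FPKM in control. All 6 were lower in CFZ than in control without overlap, and all 6 were higher in CFZ_EA than in CFZ without overlap. The summed level of 10 macrophage markers was 243 and 285 FPKM in CFZ_EA, 243 and 277 FPKM in CFZ, and 319 and 931 FPKM in control, and all 10 were highest in control replicate 2. Tgfb1 and Tgfbr2 likewise overlapped between CFZ_EA and CFZ and were highest in control replicate 2. Endothelial markers, of cells rich in Tgfbr2, summed to 153 and 162 FPKM in CFZ_EA, 182 and 168 FPKM in CFZ, and 174 and 179 FPKM in control, with 0 of 7 lower in CFZ than in control, 5 of 7 lower in CFZ_EA than in CFZ and 3 of 7 lower in CFZ_EA than in control, all without overlap. Epicardial markers summed to 4.52 and 11.7 FPKM in CFZ_EA, 4.13 and 3.74 FPKM in CFZ, and 19.2 and 45.1 FPKM in control, so that both control libraries stood highest and both CFZ libraries lowest. Platelet markers summed to 16.8 to 24.4 FPKM in the 4 treated libraries and to 19.1 and 39.5 FPKM in control, and erythroid markers to 2466 to 3470 FPKM in the treated libraries and to 4962 and 5666 FPKM in control. Cardiomyocyte markers summed to 25699 and 22902 FPKM in CFZ_EA, 25417 and 25462 FPKM in CFZ, and 23452 and 20106 FPKM in control. Of these 7 markers, 4 were higher in CFZ and 3 were higher in CFZ_EA than in control without overlap. In CFZ_EA 1 was lower than in CFZ. The summed level of 6 smooth muscle and pericyte markers overlapped between all groups, with 94.9 and 101 FPKM in CFZ_EA, 103 and 92.8 FPKM in CFZ, and 96.2 and 103 FPKM in control. Of the single markers, 2 were lower and 1 was higher without overlap in CFZ than in control, and 1 was lower and 2 were higher in CFZ_EA than in CFZ. Over all tested genes, 20.8% were lower and 12.5% higher without overlap in CFZ than in control. These shares were 17.7% and 15.1% for CFZ_EA against CFZ, and 22.1% and 10.5% for CFZ_EA against control. The smooth muscle and pericyte counts lay near these shares. The part of these cell types in the results on the 10 genes was not tested, and in RNA from mixed heart tissue fewer cells of a type and less RNA per cell cannot be told apart.

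**Figure D4:**
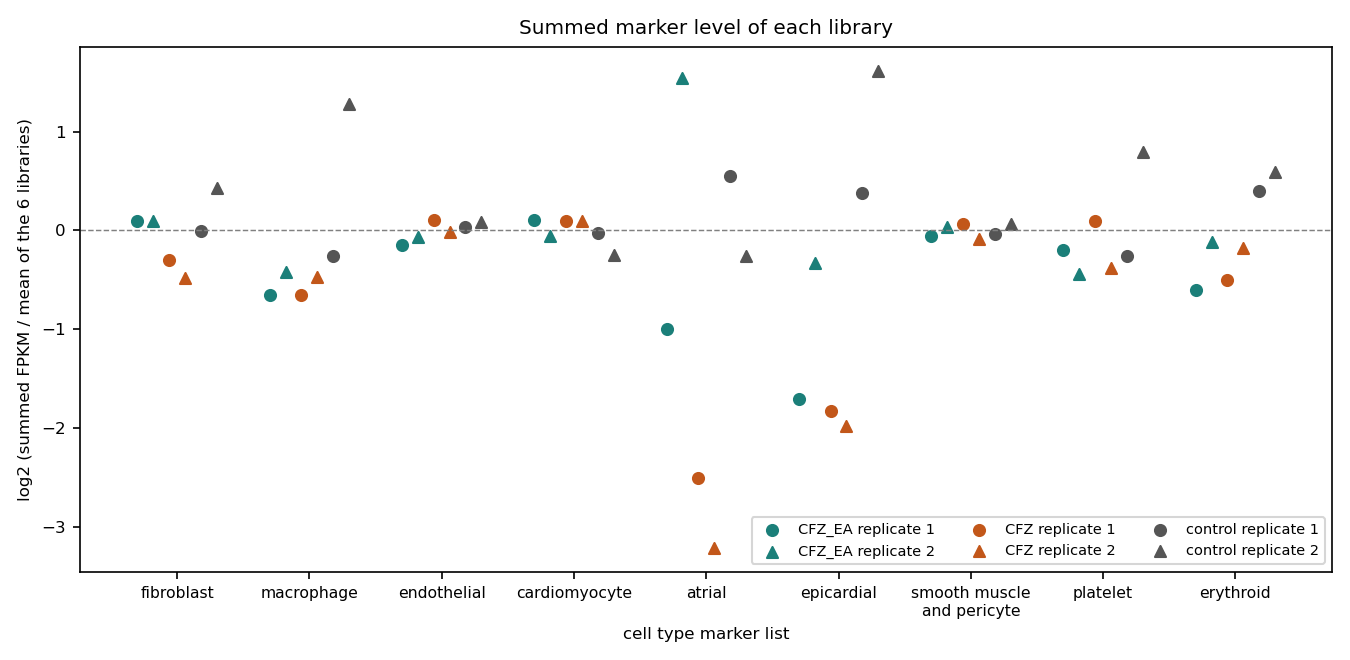
Summed FPKM of 9 cell type marker lists in each library, as log2 of the ratio to the mean of the 6 libraries (vertical axis). Circles are replicate 1 and triangles replicate 2 of CFZ_EA, CFZ and control. Fibroblast markers were lowest in both CFZ libraries, macrophage markers were highest in control replicate 2, and atrial markers spread most between libraries.

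Genes that store and release TGF-beta were the first of 5 lists of other pathway genes. Of 21 listed 17 were tested, and 16 of them were lower in CFZ than in control, with a median log2 fold change of -0.72 (-0.25 without control replicate 2) against -0.0034 for all tested genes. The list includes Dcn, which is also a fibroblast marker. By edgeR 0 were called (DESeq2 called 3), 10 were lower at an unadjusted p under 0.05 (5.9% of all tested genes) and 12 were lower without overlap (20.8% of all tested genes). Fmod, a small proteoglycan that binds TGF-beta, measured 5.04 and 4.24 FPKM in CFZ_EA, 1.93 and 0.687 FPKM in CFZ, and 5.95 and 3.95 FPKM in control. Both CFZ libraries were lowest, as for Tgfb2 and Ltbp2, and the log2 fold change was -1.90 ± 0.48 for CFZ against control and 1.85 ± 0.48 for CFZ_EA against CFZ (adjusted p = 0.608 and 1 by edgeR). With 1 CFZ library left out these were -2.76 or -1.37 and 2.71 or 1.33. Thbs1, a matrix protein that can activate latent TGF-beta, measured 1.82 and 1.34 FPKM in CFZ_EA, 0.956 and 0.441 FPKM in CFZ, and 1.42 and 5.10 FPKM in control, with -2.14 ± 0.61 for CFZ against control and -1.05 without control replicate 2.

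The most abundant genes of that list were Bgn, a TGF-beta-binding proteoglycan, and Ltbp4, which tethers latent TGF-beta1. Bgn measured 41.9 and 60.5 FPKM in CFZ_EA, 35.1 and 32.9 FPKM in CFZ, and 53.0 and 129.8 FPKM in control, and Ltbp4 measured 46.0 and 58.9 FPKM in CFZ_EA, 48.6 and 47.0 FPKM in CFZ, and 50.8 and 58.9 FPKM in control. For CFZ against control the log2 fold change of Bgn was -1.35 ± 0.39 (-0.66 without control replicate 2) and that of Ltbp4 was -0.14 ± 0.16. For CFZ_EA against CFZ 16 of the 17 were higher, with a median of 0.20 (0.14 without control replicate 2 and CFZ_EA replicate 2). For CFZ_EA against control 14 of 17 were lower, with a median of -0.34 that was -0.0074 without control replicate 2 and -0.13 without that library and CFZ_EA replicate 2. Its smallest unadjusted p-values belonged to the matrix proteases Mmp2 and Mmp14 and to the microfibril protein Fbn1, with -0.99 ± 0.34, -1.42 ± 0.57 and -1.24 ± 0.48, and without control replicate 2 these were -0.34, -0.19 and -0.25.

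Of 12 other receptors of the superfamily 8 were tested, 0 were called, and the medians were -0.15 for CFZ against control, 0.15 for CFZ_EA against CFZ and -0.056 for CFZ_EA against control. Without control replicate 2 and CFZ_EA replicate 2 these were -0.15, 0.053 and -0.10. The endothelial receptor Acvrl1, which binds BMP9 and BMP10, measured 6.85 and 6.58 FPKM in CFZ_EA, 8.25 and 9.55 FPKM in CFZ, and 8.06 and 8.17 FPKM in control. Both CFZ libraries were highest, though CFZ replicate 1 lay close to control, with 0.19 ± 0.14 for CFZ against control. Unlike for Tgfb2, both CFZ_EA libraries lay below both control libraries, with -0.21 ± 0.14 for CFZ_EA against control. Its log2 fold change for CFZ_EA against CFZ was -0.40 ± 0.14 (adjusted p = 1 by edgeR, unadjusted p = 0.0321), and -0.23 without CFZ replicate 2. Of the endothelial markers, 5 of 7 were lower without overlap in CFZ_EA than in CFZ, and their part in the Acvrl1 result was not tested. The BMP receptor Bmpr2 measured 1.06 and 1.25 FPKM in CFZ_EA, 0.862 and 0.819 FPKM in CFZ, and 1.14 and 0.953 FPKM in control, with 0.47 ± 0.19 for CFZ_EA against CFZ and 0.34 without CFZ_EA replicate 2. Eng, an endothelial co-receptor and the most abundant of the list, measured 42.5 and 56.5 FPKM in CFZ_EA, 38.9 and 42.6 FPKM in CFZ, and 48.4 and 58.0 FPKM in control.

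Of 17 other SMADs and SMAD regulators 13 were tested and 0 were called. The medians were -0.18 for CFZ against control (-0.013 without control replicate 2), 0.096 for CFZ_EA against CFZ and -0.0033 for CFZ_EA against control. Smad6, the inhibitory SMAD of BMP signalling, measured 4.20 and 4.96 FPKM in CFZ_EA, 3.53 and 3.13 FPKM in CFZ, and 4.56 and 5.59 FPKM in control. Both CFZ libraries were lowest, unlike in Smad7, and the log2 fold change was -0.55 ± 0.16 for CFZ against control and 0.47 ± 0.16 for CFZ_EA against CFZ (adjusted p = 0.608 and 1 by edgeR, unadjusted p = 0.0153 and 0.0279). Without control replicate 2 the first was -0.47, and without CFZ_EA replicate 2 the second was 0.33. Pmepa1, a TGF-beta target that restrains SMAD2 and SMAD3, measured 5.11 and 5.49 FPKM in CFZ_EA, 4.51 and 3.59 FPKM in CFZ, and 4.89 and 8.23 FPKM in control. Its change for CFZ against control was -0.63 ± 0.23, and -0.29 without control replicate 2. The SMAD repressor Ski measured 13.3 and 3.75 FPKM in CFZ_EA, 13.5 and 11.8 FPKM in CFZ, and 12.6 and 17.2 FPKM in control, and the ubiquitin ligase Smurf2, which targets SMADs and TGFBR1 for degradation, measured 3.76 and 1.50 FPKM in CFZ_EA, 2.81 and 2.93 FPKM in CFZ, and 3.85 and 3.74 FPKM in control. For both genes CFZ_EA replicate 2 alone was low.

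Of 18 other ligands and antagonists 6 were tested, all 6 below 0 for CFZ against control, with a median of -0.97 (-0.50 without control replicate 2) and 0 called. Of these, Bmp6 was at -0.0039. Bmp10 and Inhbb reached the filter through libraries in which they were high, so the filter favoured their direction. Inhbb measured 0.815 and 0.838 FPKM in CFZ, and 1.03 and 2.09 FPKM in control. Fstl3, a secreted activin antagonist, measured 1.74 and 2.64 FPKM in CFZ_EA, 0.988 and 1.39 FPKM in CFZ, and 2.13 and 3.29 FPKM in control, with -1.11 ± 0.35 for CFZ against control and 0.88 ± 0.34 for CFZ_EA against CFZ (adjusted p = 0.608 and 1 by edgeR). Without control replicate 2 the first was -0.84, and without CFZ_EA replicate 2 the second was 0.53. Fstl1, a secreted glycoprotein of fibroblasts, measured 12.0 and 14.8 FPKM in CFZ_EA, 11.2 and 8.18 FPKM in CFZ, and 15.1 and 71.3 FPKM in control, with -2.07 ± 0.63 for CFZ against control and -0.67 without control replicate 2. Bmp10, a ligand made in the atria, measured 0.0117 and 55.7 FPKM in CFZ_EA, 0.0942 and 0.0241 FPKM in CFZ, and 22.6 and 0.167 FPKM in control. It was high in the 2 libraries with the highest atrial marker sums and at 0.0117 to 0.167 FPKM in the others.

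Of 23 genes known to be induced by TGF-beta 17 were tested, and 16 were lower in CFZ than in control, with a median of -2.33 that was -0.49 without control replicate 2. By edgeR 0 were called (DESeq2 called 3), 13 were lower at an unadjusted p under 0.05 (5.9% of all tested genes) and 14 were lower without overlap (20.8% of all tested genes). These counts, and those for CFZ_EA against control below, include genes that passed the filter through control replicate 2, which favoured their direction. Among them, Cthrc1 measured 31.3 FPKM in that library and 0 to 0.294 FPKM in the others. Lox measured 5.11 FPKM in it and 0.330 to 0.477 FPKM in the others. Comp, a cartilage and tendon matrix protein, measured 3.93 and 6.92 FPKM in CFZ_EA, 1.12 and 1.33 FPKM in CFZ, and 5.00 and 7.97 FPKM in control. Both CFZ libraries were lowest, and the log2 fold change was -2.33 ± 0.35 for CFZ against control and 2.15 ± 0.35 for CFZ_EA against CFZ (adjusted p = 0.518 and 0.560 by edgeR, unadjusted p = 0.000552 and 0.000808). Without control replicate 2 the first was -2.04, and without CFZ_EA replicate 2 the second was 1.67. DESeq2 called Comp in both comparisons (adjusted p = 4.41e-07 and 5.56e-06).

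Postn, a matrix protein of activated fibroblasts, measured 0.899 and 1.70 FPKM in CFZ_EA, 0.413 and 0.343 FPKM in CFZ, and 1.43 and 13.2 FPKM in control, with -4.15 ± 0.99 for CFZ against control and -1.92 without control replicate 2. The protease inhibitor Timp1 measured 2.78 and 4.60 FPKM in CFZ_EA, 1.91 and 2.10 FPKM in CFZ, and 6.49 and 105 FPKM in control, with -4.68 ± 1.21 and -1.70 without control replicate 2. Fibrillar collagen Col3a1 measured 23.8 and 26.4 FPKM in CFZ_EA, 24.5 and 14.7 FPKM in CFZ, and 31.5 and 349 FPKM in control. In these 3 genes control replicate 2 was several times above control replicate 1. Acta2, the smooth muscle actin of myofibroblasts and vessels, measured 55.1 and 82.8 FPKM in CFZ_EA, 73.0 and 71.7 FPKM in CFZ, and 69.3 and 184 FPKM in control, where CFZ and control overlapped.

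For CFZ_EA against CFZ 14 of the 17 induced genes were higher, with a median of 0.49 (0.47 without control replicate 2 and CFZ_EA replicate 2). Of these, 11 were higher without overlap, against 15.1% of all tested genes, and 2 had an unadjusted p under 0.05, against 2.01% in that direction. Ccn2, a matricellular protein and a common readout of the pathway, measured 16.9 and 23.9 FPKM in CFZ_EA, 12.9 and 9.32 FPKM in CFZ, and 14.3 and 28.1 FPKM in control, with 0.90 ± 0.32 for CFZ_EA against CFZ (adjusted p = 1 by edgeR, unadjusted p = 0.0317) and 0.61 without CFZ_EA replicate 2. The cell cycle inhibitor Cdkn1a measured 11.2 and 7.84 FPKM in CFZ_EA, 5.31 and 6.30 FPKM in CFZ, and 7.24 and 15.9 FPKM in control, with 0.72 ± 0.35 (0.46 without CFZ_EA replicate 1). Id1, a BMP target that TGF-beta also regulates, ran the other way: it measured 40.8 and 39.9 FPKM in CFZ_EA, 44.0 and 65.0 FPKM in CFZ, and 39.2 and 42.5 FPKM in control, with -0.43 ± 0.22, and -0.060 without CFZ replicate 2. For CFZ_EA against control 15 of 17 were lower, with a median of -0.87 that was -0.0067 without control replicate 2 and -0.29 without that library and CFZ_EA replicate 2.

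**Figure D5:**
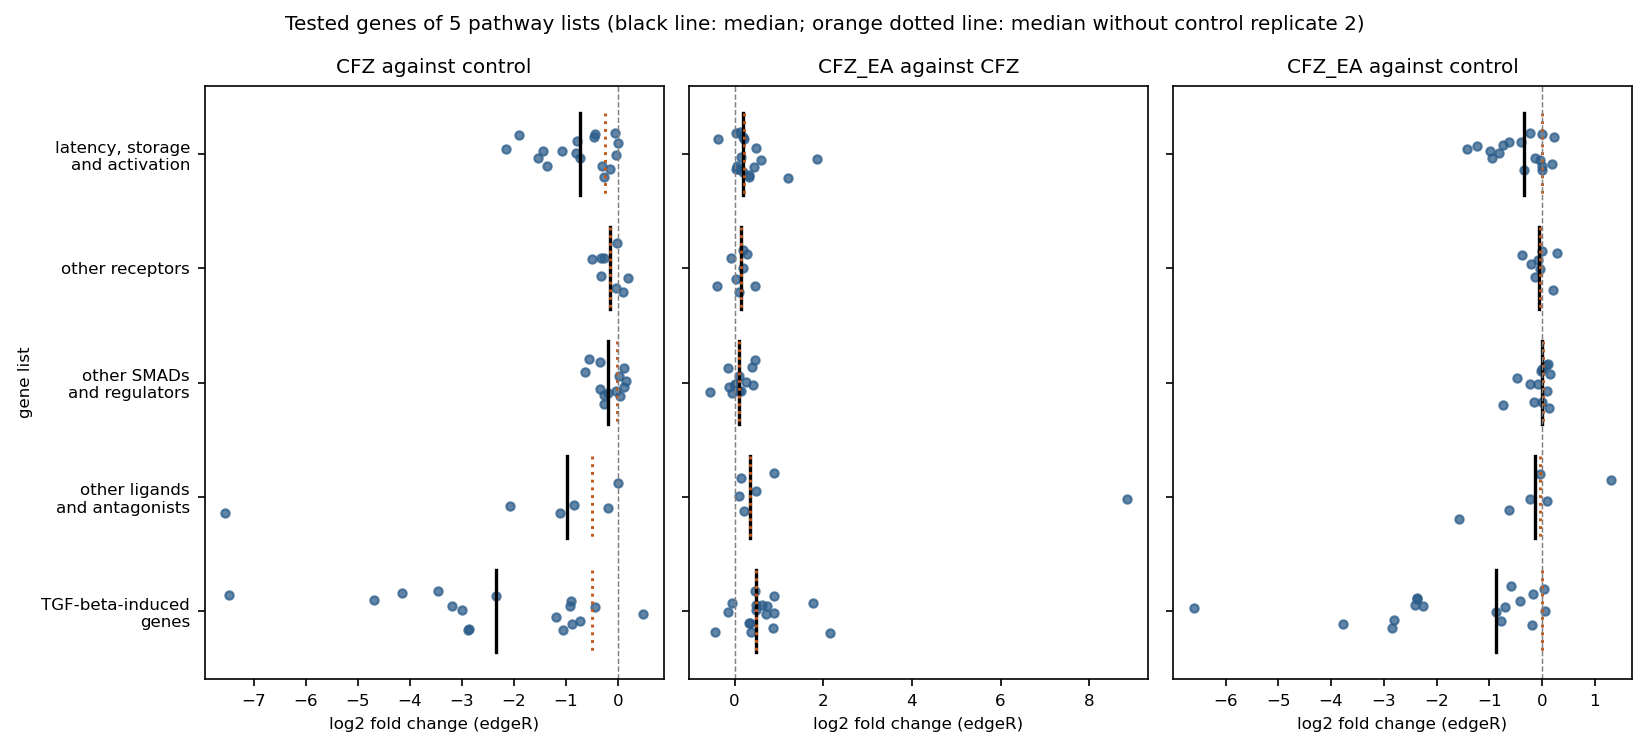
Log2 fold change (horizontal axes) of every tested gene of 5 pathway lists in 3 comparisons, with a black line at the list's median and a dotted line at its median without control replicate 2. For CFZ against control the median of the induced genes was -2.33, and -0.49 without that library; for CFZ_EA against CFZ it was 0.49 with and without it.

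Across the 6 libraries the tested genes most like each ligand and Ltbp2 were found by Pearson's r of log2 count levels scaled to library size. For Tgfb2 these were Trabd (r = 0.989), Rbm10 (r = 0.984) and Comp (r = 0.982), and 0.794% of tested genes had r over 0.9. For Ltbp2 they were Vcam1 (r = 0.997), Hsp90aa1 (r = 0.989) and Ltbp3 (r = 0.989), with 2.38% over 0.9. Ltbp3, which tethers latent TGF-beta, measured 5.72 and 6.13 FPKM in CFZ_EA, 4.41 and 4.33 FPKM in CFZ, and 5.51 and 10.4 FPKM in control, with the libraries in the same order as for Ltbp2 except for the nearly tied CFZ replicates. For Tgfb3 they were Slc39a13 (r = 0.999), Pcolce (r = 0.998) and Cd248 (r = 0.998), with 7.15% over 0.9, and all 3 were highest in control replicate 2. For Tgfb1 they were Map3k10 (r = 0.996), Spcs3 (r = 0.993) and Ripk3 (r = 0.990), with 1.55% over 0.9. With 6 points, of which control replicate 2 is one far from the others, these values describe these libraries only.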

How the data were processed

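Messenger RNA of 6 heart libraries was measured. Per the labels' protocols, polyadenylated RNA (integrity number over 7) went into libraries made with a dUTP strand kit, and a NovaSeq read them as pairs of 150 bases. Tools and build named in the submitters' processing notes are StringTie 1.3.4d, HISAT2 2.0.4, cutadapt 1.9 and GRCm38. Neither the annotation release nor the strand setting of the counting is given in those sources. The authors' table has a column of FPKM and a column of counts for every library, per the file headers. The deposited counts were treated as estimated counts and rounded, since 42.2% to 43.3% of the counts from 1 to 20 are multiples of 4, against 25% by chance, so counting error may be larger than they show.

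Genes with a mean of at least 1 FPKM (10329) were fitted with edgeR 4.0.16 (R 4.3.3) on TMM-scaled counts (factors 0.955 to 1.08), with group as the only term over all 6 libraries, which left 3 residual degrees of freedom. Genes were called at a p under 0.05 after Benjamini-Hochberg adjustment over all tested genes. Tgfb2 and Ltbp2 lie below the filter, so their values come from the same fit on the 16929 genes with a mean of at least 0.1 FPKM. On simulated data the fit called 26.9% to 38.8% of 2-fold changes and 89.6% to 94.0% of 4-fold changes over the 3 comparisons. In the measured data some changes beyond 4-fold also went uncalled for CFZ against control. Among them were Comp at -2.33, Postn at -4.15 and Timp1 at -4.68 (log2, adjusted p = 0.518, 0.608 and 0.608 by edgeR). The simulated shares therefore do not carry over to every gene. An absence of calls says little about changes of 2-fold or less and does not exclude larger ones. Standard errors were derived from the log2 fold change and its F statistic. Since nothing in the labels says that replicates are separate mice, the p-values cover the spread among these libraries alone, and that spread may be technical. Alternatives were other scalings, filters and tests (DESeq2 1.42.0, limma 3.58.1 on log2 of FPKM plus 1 or 0.1), counts divided by 4, the replicate number as a block, the compared groups alone and each library left out.

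The 10 genes, the 5 pathway lists and the 9 marker lists were chosen with earlier results of these data known. From each pathway list the text takes its genes from up to 4 with the smallest unadjusted p per comparison and up to 2 with the highest mean FPKM. Lox is named besides, for the way it passed the filter. Gene positions and overlaps come from GENCODE M21, with which the ends of all 10 genes agree, and promoters from RefSeq (GRCm38.p6). Python 3.11.15 was used.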

Additional observations from a re-analysis of the deposited data

How the results depend on the processing

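By edgeR with all libraries 0 of the 10 genes were called, and among the alternatives run only Tgfb3 and Ltbp2 were, with the values given above. Of the 8 genes in the main test 1 (Tgfb3) was called without control replicate 1, for CFZ against control and for CFZ_EA against control, where counts of called members ran from 0 to 1 with a library left out. Over all tested genes, 3 were called for CFZ against control, against 138 by DESeq2, 1 with counts divided by 4, 0 with the compared groups alone, 32 without control replicate 2 and CFZ_EA replicate 2 together, and 0 to 332 with a library left out. For CFZ_EA against CFZ 2 were called, against 55 by DESeq2, 1 with counts divided by 4 and 0 to 4 with a library left out. For CFZ_EA against control 0 were called (530 at an unadjusted p under 0.05), against 51 by DESeq2, 1 without those 2 libraries and 0 to 231 with a library left out; the high counts are those without control replicate 1. In the storage and activation list DESeq2 called 3 genes for CFZ against control and 1 for CFZ_EA against CFZ, and with a library left out the counts ran from 0 to 7 for CFZ against control and 0 to 4 for CFZ_EA against control. In the list of induced genes the DESeq2 counts in those comparisons were also 3 and 1, and with a library left out the counts ran from 0 to 11 for CFZ against control and from 0 to 9 for CFZ_EA against control. In the list of other ligands they ran from 0 to 1 in both comparisons with control. With a replicate block 2 genes were called for CFZ against control and no call on the 10 genes changed. The correlation of deviations between same-numbered libraries was -0.070 (CFZ and control), 0.075 (CFZ_EA and CFZ) and -0.062 (CFZ_EA and control), so the numbers were not taken to pair the samples. Some directions turned with a setting or with a library left out, and the cause was not tested. For CFZ against control, Tgfbr3 gave -0.0024 and -0.0072 by limma with a pseudocount of 1 and 0.1 and -0.16 to 0.26 with a library left out, Smad7 gave 0.015 and 0.027 with the lower filter and with none and -0.37 to 0.25, and Smad3 gave -0.64 to 0.34. For CFZ_EA against CFZ the ranges with a library left out were -0.22 to 0.22 for Tgfb1, -0.21 to 0.21 for Tgfbr3, -0.15 to 0.29 for Smad2, -0.18 to 0.79 for Smad3, -0.16 to 0.47 for Smad7, -0.033 to 0.75 for Wwp1 and -2.26 to 10.04 for Bmp10. For CFZ_EA against control, Tgfbr3 gave -0.029 with library totals, -0.020 and -0.026 by limma and -0.099 to 0.15 with libraries left out, and the ranges were -1.41 to 0.013 for Tgfb3, -1.68 to 0.55 for Ltbp2, -0.19 to 0.33 for Smad7, -0.11 to 0.42 for Bmpr2, -1.89 to 0.064 for Ski, -1.25 to 0.030 for Smurf2, -0.99 to 0.19 for Inhbb and -0.58 to 0.065 for Fstl3. Of the 10 genes, Ltbp2 had the lowest counts, 98 and 96 in the CFZ libraries.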
